A study of Mus musculus with 12 samples.

Results

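Enteroendocrine cells are the hormone-secreting cells of the gut epithelium, and the 10 genes described here encode their granins, hormones and regulators: Chga, Chgb, Gip, Gcg, Cck, Pyy, Nts, Sst, Tph1 and Neurod1. They were taken by symbol from the 23284 genes of the deposited count table, and 10 of 10 passed the filter on low counts, with 15866 genes tested in all. RNA of the terminal ileum was sequenced in 12 mice, with 1 library per mouse and 3 mice in each of 4 groups. The groups were Rag1-/- mice, co-housed Tcra-/- mice, separately housed Tcra-/- mice and wild type C57BL/6 mice, all from Taconic and kept specific-pathogen-free. Rag1-/- mice lack the recombinase subunit needed to assemble antigen receptors, and with it mature T and B cells. Tcra-/- mice lack a chain of the alpha beta T cell receptor and keep B cells and gamma delta T cells. Co-housed Tcra-/- mice had shared a cage with an equal number of age-matched male wild type mice for 4 to 8 weeks. The labels give no age in weeks, no count of cages and no batch, so a cage cannot be told apart from a group and p-values measure the spread between mice. The design text sets Rag1-/- against wild type mice and co-housed against separately housed Tcra-/- mice; each Tcra-/- group was also set against wild type to place all 4 levels.

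Each library summed to between 37061276 and 50581616 counts. Single mice carry the names of the labels, which start with RAG1x, TCRaCox, TCRaSepx and WTB6x in these 4 groups. Rag1 itself had 236 reads in the 3 mice labelled Rag1-/-, and 0 reads in each of the 9 other libraries. The deleted part of the gene is not known here, so these reads check nothing, and directions refer to mice labelled Rag1-/-. The summed level of 8 B cell genes was 2.99 to 4.19 CPM (counts scaled to a common library size by the trimmed mean of M-values) in mice labelled Rag1-/-, against 159 to 195 CPM in wild type mice. Fabp6, the bile acid binding protein of ileal enterocytes, averaged between 3130 and 3922 CPM in all 4 groups, and the insulin genes Ins1 and Ins2 had 0 reads in all libraries.

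Enteroendocrine cells are scattered singly among enterocytes and release peptide hormones or serotonin from dense granules in response to nutrients and microbial products. Subtypes differ in the hormones they make: enterochromaffin cells make serotonin, K cells make GIP, L cells make GLP-1 and PYY from Gcg and Pyy, I cells make CCK, N cells make neurotensin and D cells make somatostatin. Individual cells often co-express several hormones, and the mix shifts along the gut and along the crypt to villus axis. Neurod1 is a transcription factor of the differentiating lineage, while granins pack the granules of most subtypes. In whole ileum, fewer cells of a type and less RNA per cell cannot be told apart.

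Promoters of 4 hormone genes are shown because Chga and Gip had lower levels in mice labelled Rag1-/- and in co-housed Tcra-/- mice, whereas Gcg and Cck did not. Each is the 250 bases before the start site from RefSeq (GRCm38.p6), read 5′ to 3′ on the strand of the gene. The Chga window is chr12:102554691-102554940 (plus strand), the Gip window chr11:96024295-96024544 (plus strand), the Gcg window chr2:62483654-62483903 (minus strand) and the Cck window chr9:121495695-121495944 (minus strand). Capitals mark the E-box CANNTG, the motif of basic helix-loop-helix factors such as NEUROD1, and TGACG, the first 5 bases of the cAMP response element, searched on both strands; no base was shared by both motifs.
Chga: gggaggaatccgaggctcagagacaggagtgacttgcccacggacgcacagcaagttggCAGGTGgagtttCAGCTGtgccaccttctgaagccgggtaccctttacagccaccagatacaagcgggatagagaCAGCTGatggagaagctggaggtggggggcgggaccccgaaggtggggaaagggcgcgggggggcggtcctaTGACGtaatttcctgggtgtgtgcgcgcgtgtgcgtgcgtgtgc
Gip: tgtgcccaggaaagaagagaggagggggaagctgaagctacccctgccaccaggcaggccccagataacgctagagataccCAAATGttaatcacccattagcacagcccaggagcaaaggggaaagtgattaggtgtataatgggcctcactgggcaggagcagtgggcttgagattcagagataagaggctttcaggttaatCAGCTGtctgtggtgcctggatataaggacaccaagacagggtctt
Gcg: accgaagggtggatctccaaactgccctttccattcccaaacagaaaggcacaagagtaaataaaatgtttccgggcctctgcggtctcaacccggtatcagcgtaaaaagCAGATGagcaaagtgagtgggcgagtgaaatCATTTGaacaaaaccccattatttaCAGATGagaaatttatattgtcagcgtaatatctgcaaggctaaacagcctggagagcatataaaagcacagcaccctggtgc
Cck: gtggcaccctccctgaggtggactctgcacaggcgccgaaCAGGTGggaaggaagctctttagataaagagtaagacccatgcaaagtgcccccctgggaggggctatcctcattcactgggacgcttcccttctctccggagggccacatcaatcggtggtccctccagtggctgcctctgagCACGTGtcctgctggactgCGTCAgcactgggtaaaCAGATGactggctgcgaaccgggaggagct
The Chga window held E-boxes starting at -191, -179 and -116 from the start site and TGACG at -44. The Gip window held E-boxes at -169 and -46 and no TGACG. The E-box variant CAGATG, a preferred site of NEUROD1, was in the windows of Gcg, at -139 and -83, and Cck, at -30, and in none of the other 8 members. Those without it include Pyy, Sst and Neurod1, which also passed in no comparison. The windows printed were chosen from the levels, and a link of any motif to the levels was not tested. Of 32851 RefSeq promoter windows of this length, 66.2% held CANNTG, 17.8% held TGACG and 14.4% held CAGATG. The whole element TGACGTCA, held by 1.55% of all windows, was in those of Chgb, at -72, and Sst, at -48. These are matches of letters in 12 windows (Tph1 and Pyy have more than 1 start site), not measured binding.

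Chga and Chgb encode chromogranins, acidic proteins that help to form secretory granules in most enteroendocrine cells. Chga (mm9 chromosome 12, 103793179 to 103803237, plus strand) had 26.0, 31.1 and 30.5 CPM in the mice labelled Rag1-/-, against 54.0, 58.6 and 45.7 CPM in wild type mice. In Tcra-/- mice Chga had 37.8, 36.0 and 24.9 CPM when co-housed, against 46.3, 51.3 and 49.9 CPM when separately housed. All 6 mice of the 2 lower groups thus lay below all 6 mice of the 2 higher groups. The share of all genes tested that split the 12 mice in this way was not counted. The split is therefore not shown to be particular to the genes described here. Chga fell by 0.85 on the log2 scale in mice labelled Rag1-/- (1.81-fold lower, SE 0.14, edgeR adjusted p = 0.000259) and by 0.58 in co-housed against separately housed Tcra-/- mice (1.49-fold lower, SE 0.14, adjusted p = 0.00262). The call in co-housed mice was lost without TCRaSepxT3 (adjusted p = 0.0116) or TCRaSepxT4 (adjusted p = 0.0118).

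Chgb (chromosome 2, 132607014 to 132620808, plus strand) followed with 34.4, 46.1 and 43.8 CPM in mice labelled Rag1-/- and 64.5, 61.6 and 52.9 CPM in wild type mice. Among Tcra-/- mice, co-housed ones had 54.0, 48.7 and 30.8 CPM, against 69.6, 78.2 and 65.8 CPM in separately housed mice. Neither pair of groups overlapped, and the co-housed group overlapped wild type. Chgb fell in co-housed against separately housed mice (log2 fold change -0.68, SE 0.18, adjusted p = 0.00826). This call was lost without a filter on low counts (adjusted p = 0.0160), with those 6 libraries alone (0.0249), and without TCRaCox3156 (0.0182), TCRaSepxT2, TCRaSepxT3 or TCRaSepxT4 (0.0198, 0.0309 and 0.0163 for the last 3). In mice labelled Rag1-/- Chgb did not pass (-0.53, SE 0.18, adjusted p = 0.0459), but passed with the 6 libraries alone (-0.51, adjusted p = 0.00478).

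**Figure D1:**
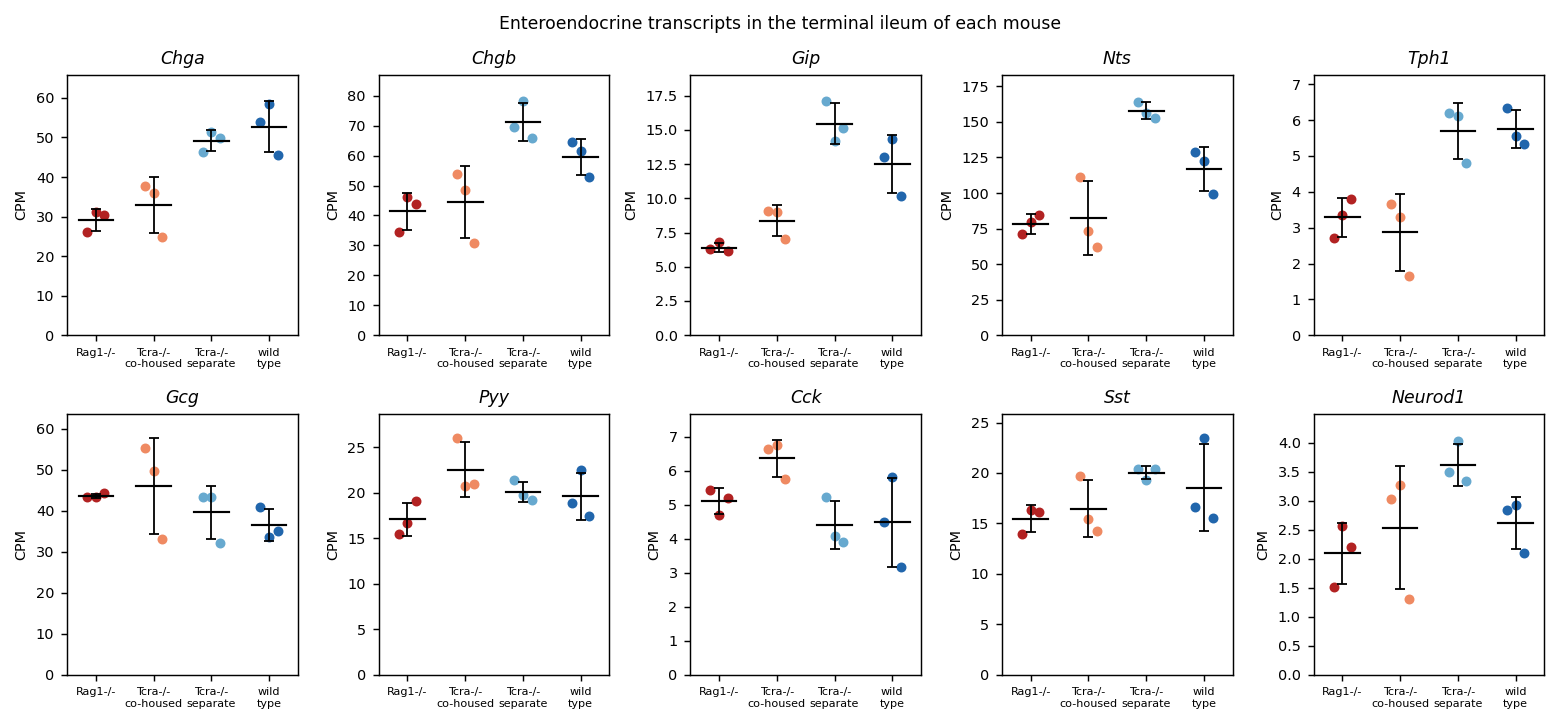
Each panel plots 1 gene in CPM on the vertical axis (from 0) for the 4 groups, with 1 point per mouse, a line at the mean and bars of 1 SD (n = 3). Chga, Gip and Tph1 lie lower in Rag1-/- and co-housed Tcra-/- mice than in the other 6 mice with no overlap, whereas Gcg, Pyy and Cck do not. The share of all genes that split the mice in this way was not counted.

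Gip encodes the incretin GIP, a hormone of K cells that are most frequent in the duodenum. Gip (chromosome 11, 95885859 to 95892142, plus strand) had 6.27, 6.78 and 6.13 CPM in mice labelled Rag1-/- and 13.0, 14.3 and 10.2 CPM in wild type mice. Co-housed Tcra-/- mice had 9.08, 8.98 and 7.03 CPM, against 17.1, 14.2 and 15.1 CPM in separately housed mice. The group order was Rag1-/-, co-housed, wild type and separately housed from low to high, and only the last pair of neighbours overlapped. Gip fell by 0.97 in mice labelled Rag1-/- (1.96-fold lower, SE 0.14, adjusted p = 6.6e-05), by 0.89 in co-housed against separately housed mice (1.85-fold lower, SE 0.14, adjusted p = 6.32e-05) and by 0.58 in co-housed against wild type mice (SE 0.14, adjusted p = 0.00491). The last of these was lost with the 6 libraries alone (adjusted p = 0.0215) and, among others, without TCRaCox3157 (0.0241).

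Because Gip marks the proximal gut, lists of regional genes were set beside it. Of 4 tested genes of the proximal small intestine, Slc40a1, the iron exporter, rose in mice labelled Rag1-/- (log2 fold change 1.44, SE 0.12, adjusted p = 4.08e-07) and in co-housed against separately housed mice (2.36, SE 0.12, adjusted p = 2.69e-09). Gata4, a transcription factor of the proximal intestine, fell in co-housed against separately housed mice (-0.37, SE 0.10, adjusted p = 0.00573). Mettl7b, a gene of the colon list, fell in that comparison (-0.99) and did not pass in mice labelled Rag1-/-. Whether the dissected position took part in the Gip values was not tested.

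Nts encodes neurotensin, a peptide of ileal N cells that is released by fat. Nts (chromosome 10, 101944390 to 101953052, minus strand) had 70.9, 79.7 and 84.6 CPM in mice labelled Rag1-/- and 129, 123 and 99.3 CPM in wild type mice. In the Tcra-/- genotype Nts had 112, 73.1 and 62.1 CPM in co-housed mice, against 164, 156 and 153 CPM in separately housed mice. Separately housed mice lay above all 9 others, and co-housed mice overlapped wild type. Nts fell in co-housed against separately housed mice (1.92-fold lower, log2 fold change -0.94, SE 0.18, adjusted p = 0.00126). It did not pass in mice labelled Rag1-/- (-0.58, SE 0.18, adjusted p = 0.0328), but passed there with library size as the scaling (adjusted p = 0.00639), with the 6 libraries alone (0.00115) and with DESeq2 (0.00340).

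Tph1 encodes the tryptophan hydroxylase of enterochromaffin cells and mast cells, the rate-limiting step of peripheral serotonin synthesis. Tph1 (chromosome 7, 53902501 to 53927907, minus strand) had 2.72, 3.34 and 3.80 CPM in mice labelled Rag1-/- and 6.34, 5.55 and 5.34 CPM in wild type mice. Co-housed Tcra-/- mice had 3.66, 3.29 and 1.66 CPM, against 6.19, 6.13 and 4.79 CPM in separately housed mice. As for Chga, the 6 mice of the 2 lower groups did not overlap the 6 others, and the share of all genes that did so was not counted. Tph1 fell in co-housed against separately housed mice (1.99-fold lower, log2 fold change -0.99, SE 0.23, adjusted p = 0.00188) and against wild type mice (-1.01, SE 0.23, adjusted p = 0.00357; 0.0160 with the 6 libraries alone). In mice labelled Rag1-/- it did not pass (-0.80, SE 0.23, adjusted p = 0.0124), but passed with library size as the scaling (0.00317), with the 6 libraries alone (0.00286) and with DESeq2 (0.00361). Of 7 tested mast cell genes, none passed in mice labelled Rag1-/-, and in co-housed against separately housed mice Hdc rose (1.84, adjusted p = 0.00899) and Kit fell (-0.55, adjusted p = 0.00243). The median log2 fold change of the 7 mast cell genes was 0.52 in mice labelled Rag1-/- and 1.60 in co-housed against separately housed mice. Summed mast cell levels overlapped in all groups, at 25.7 to 34.8 CPM in Rag1-/-, 25.0 to 34.4 in co-housed, 25.9 to 39.1 in separately housed and 27.7 to 33.1 CPM in wild type mice. Kit alone averaged 28.0 CPM in separately housed and 20.2 CPM in wild type mice. The next highest tested gene of the list, Mcpt1, averaged 2.12 CPM in separately housed and 5.69 CPM in wild type mice. The sums thus mostly follow Kit and do not show level mast cell RNA. Whether the Kit reads came from mast cells was not tested, so the fall of Kit is not shown to be a mast cell change.

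Gcg, the proglucagon gene from which L cells make GLP-1 and GLP-2, did not follow the granins. Gcg (chromosome 2, 62312587 to 62321710, minus strand) had 43.3, 43.5 and 44.2 CPM in mice labelled Rag1-/- and 41.0, 33.7 and 35.1 CPM in wild type mice. Co-housed Tcra-/- mice had 55.4, 49.8 and 33.0 CPM, against 43.5, 43.3 and 32.1 CPM in separately housed mice. The groups overlapped except Rag1-/- and wild type, and Gcg passed in no comparison. Its log2 fold change was 0.26 in mice labelled Rag1-/- (95% interval -0.13 to 0.64, adjusted p = 0.286) and 0.22 in co-housed against separately housed mice (-0.17 to 0.60, adjusted p = 0.304). Without TCRaCox3157, which had the lowest Gcg of its group, Gcg was called higher in co-housed mice, by 0.41 against separately housed mice (adjusted p = 0.00964) and by 0.52 against wild type mice (0.00428).

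Pyy encodes peptide YY, which L cells store beside GLP-1. Pyy (chromosome 11, 101967991 to 101969090, minus strand) had 15.5, 16.7 and 19.0 CPM in mice labelled Rag1-/- and 18.8, 22.5 and 17.5 CPM in wild type mice. Under co-housing, Tcra-/- mice had 26.0, 20.7 and 20.9 CPM, against 21.3, 19.8 and 19.2 CPM in separately housed mice. Neighbouring groups overlapped throughout, and no difference passed. The log2 fold changes were -0.20 in mice labelled Rag1-/- (95% interval -0.47 to 0.07, adjusted p = 0.219) and 0.16 in co-housed against separately housed mice (-0.10 to 0.43, adjusted p = 0.257).

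Cck encodes cholecystokinin, which drives gallbladder contraction and pancreatic secretion. Cck (chromosome 9, 121398942 to 121404807, minus strand) had 5.44, 4.69 and 5.21 CPM in mice labelled Rag1-/- and 4.48, 5.80 and 3.18 CPM in wild type mice. Co-housed Tcra-/- mice had 6.63, 6.74 and 5.74 CPM, against 5.22, 4.08 and 3.92 CPM in separately housed mice. Co-housed mice lay above separately housed mice without overlap, but the difference did not pass (log2 fold change 0.53, SE 0.19, adjusted p = 0.0280). Cck in mice labelled Rag1-/- differed from wild type by 0.19 (95% interval -0.25 to 0.63, adjusted p = 0.497), and leaving out 1 mouse gave -0.01 to 0.42.

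Sst, the gene of somatostatin, with which D cells inhibit their neighbours, and Neurod1 passed in no comparison. Sst (chromosome 16, 23889667 to 23890930, minus strand) ranged from 13.9 to 16.4 CPM in mice labelled Rag1-/-, from 14.2 to 19.7 CPM in co-housed, from 19.3 to 20.4 CPM in separately housed and from 15.5 to 23.5 CPM in wild type mice. Its log2 fold change was -0.26 in mice labelled Rag1-/- (95% interval -0.60 to 0.08) and -0.29 in co-housed against separately housed mice (-0.62 to 0.05). Neurod1 (chromosome 2, 79292798 to 79296793, minus strand) was the scarcest member, with 1.52 to 2.56 CPM in mice labelled Rag1-/-, 1.31 to 3.27 in co-housed, 3.35 to 4.03 in separately housed and 2.10 to 2.92 CPM in wild type mice. Separately housed mice lay above the other 3 groups, but the difference from co-housed mice did not pass (-0.51, 95% interval -1.15 to 0.13, adjusted p = 0.136). Neurod1 had 53 to 173 reads per library, which widens its intervals.

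Counted together, 2 of the 10 genes fell in mice labelled Rag1-/- against wild type and none rose, where 11.5% of all genes tested were called lower and 9.42% higher. In co-housed against separately housed Tcra-/- mice 5 of 10 fell and none rose, where 17.7% of all genes were called lower and 21.1% higher. In co-housed against wild type mice 3 of 10 fell and none rose, where 9.19% were called lower and 9.34% higher. In separately housed Tcra-/- against wild type mice edgeR called none of 10, where 7.70% of all genes were called lower and 6.06% higher. There 2 members, Gip and Nts, had an unadjusted p under 0.05, both higher (0.31 and 0.43), and DESeq2 also called none. The median log2 fold change of the 10 genes was -0.42, -0.55, -0.30 and 0.11 in these 4 comparisons, in the order given, against -0.02, -0.01, 0.00 and 0.00 for all genes tested. The first and the last 2 of these comparisons share the wild type libraries, and both Tcra-/- groups enter 2 comparisons each, so they are not independent.

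These counts moved with single libraries and with the scaling. In mice labelled Rag1-/- the 2 calls, Chga and Gip, held in 12 of 12 alternatives, and the number called was 2 without any 1 mouse, but 4 with library size as the scaling or with DESeq2 and 5 with the 6 libraries alone. In co-housed against separately housed mice Gip, Nts and Tph1 held in 12 of 12 alternatives, and the number called was 3 without TCRaSepxT3 or TCRaSepxT4. Against wild type, the co-housed count was 1 without WTB6x3159 and 0 without WTB6x3160 or with the 6 libraries alone. Scaling by library size put the median log2 fold change of all tested genes at -0.19 in mice labelled Rag1-/- and at -0.12 in co-housed mice against either group. The calls over all genes then split into 713 higher and 3218 lower in mice labelled Rag1-/-, beside 1494 and 1820, into 2480 higher and 3695 lower in co-housed against separately housed mice, beside 3347 and 2809, and into 795 higher and 2449 lower in co-housed against wild type mice, beside 1482 and 1458.

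**Figure D2:**
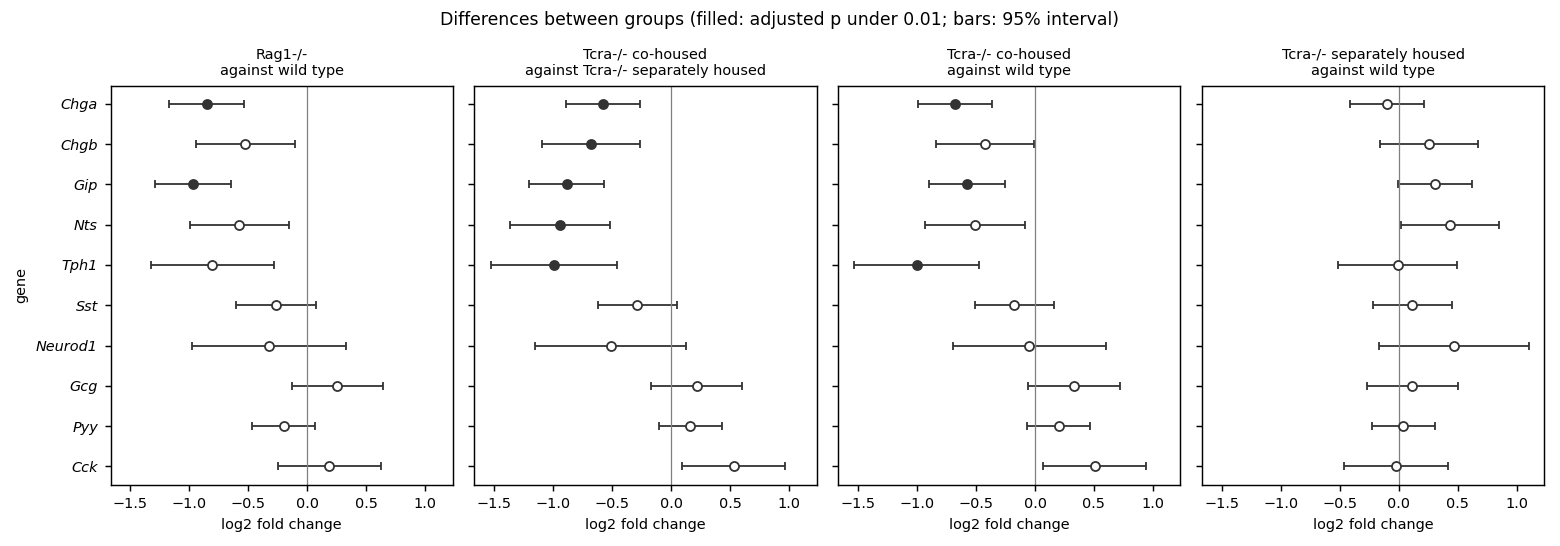
Log2 fold changes on the horizontal axis of the 10 genes in 4 comparisons, with bars of the 95% interval and filled points for genes called at an adjusted p under 0.01. Chga and Gip are filled in the first 3 panels, and no point is filled for separately housed Tcra-/- against wild type mice.

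Between genes, levels can be compared per kb of exon length. By mean CPM per kb, Nts was first in each group, with 66.5 in mice labelled Rag1-/-, 69.7 in co-housed, 134 in separately housed and 99.2 in wild type mice. In wild type mice Pyy (39.3 ± 5.22 CPM per kb), Gcg (33.5 ± 3.55), Sst (31.0 ± 7.17) and Chga (28.0 ± 3.48, SD, n = 3) came next. Among these genes, neighbours in that order had overlapping spans of the mean ± 1 SD. Gip had 19.3 ± 3.24 CPM per kb in wild type mice, Cck 6.54 ± 1.91, Tph1 2.66 ± 0.244 and Neurod1 1.05 ± 0.181. In mice labelled Rag1-/- Gcg (40.0 ± 0.441) and Pyy (34.2 ± 3.62) stood well above Chga (15.5 ± 1.48) and Gip (9.85 ± 0.528). Among mice of 1 group the genes also varied together: TCRaCox3157 had the lowest Chga, Chgb, Gip, Gcg, Nts, Tph1, Sst, Cck and Neurod1 of its group. The coefficient of variation of Nts was 31.5% in co-housed mice and 3.65% in separately housed mice.

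Read ratios within a library remove the effect of total depth; they were chosen after the values were seen, and 3 mice against 3 cannot give an exact two-sided permutation p below 0.1, so they are given with no test. Gcg per read of Chga was 1.67, 1.399 and 1.45 in mice labelled Rag1-/- and 1.46, 1.38 and 1.33 in co-housed Tcra-/- mice. The same ratio was 0.940, 0.843 and 0.642 in separately housed Tcra-/- mice and 0.759, 0.574 and 0.769 in wild type mice. Gcg reads thus exceeded Chga reads in all 6 mice of the first 2 groups and in none of the other 6. Cck per read of Gip was 0.692 to 0.867 in mice labelled Rag1-/- and 0.730 to 0.817 in co-housed mice, against 0.259 to 0.306 in separately housed and 0.311 to 0.405 in wild type mice. Pyy per read of Chga was 0.536 to 0.623 in mice labelled Rag1-/- and 0.574 to 0.840 in co-housed mice, against 0.385 to 0.461 in separately housed and 0.348 to 0.384 in wild type mice. Gip per read of Chga averaged 0.220 in mice labelled Rag1-/-, 0.257 in co-housed, 0.316 in separately housed and 0.236 in wild type mice. Its ranges overlapped between Rag1-/- and wild type mice, while separately housed mice (0.276 to 0.369) lay above both. Chgb per read of Chga ranged from 1.05 to 1.52 over all 12 mice, and Tph1 per read of Chga from 0.0666 to 0.134. Sst per read of Chga was 0.526 to 0.535 in mice labelled Rag1-/- and 0.429 to 0.572 in co-housed mice, against 0.375 to 0.442 in separately housed and 0.308 to 0.400 in wild type mice. Against Chgb, Pyy did not split the mice in this way, with 0.362 to 0.450 in mice labelled Rag1-/- and 0.292 to 0.365 in wild type mice. Sst per read of Chgb overlapped too. Gcg per read of Chgb did split them, at 0.943 to 1.26 in mice labelled Rag1-/- and 1.02 to 1.07 in co-housed mice. It was 0.488 to 0.624 in separately housed and 0.547 to 0.665 in wild type mice. Cck per read of Chgb also split them, at 0.102 to 0.158, 0.123 to 0.186, 0.0521 to 0.0750 and 0.0600 to 0.0942 in the same order. Chga, Gip and, on average, Chgb were themselves lower in Rag1-/- and co-housed mice. A gene that did not fall there has a higher ratio to them by construction.

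**Figure D3:**
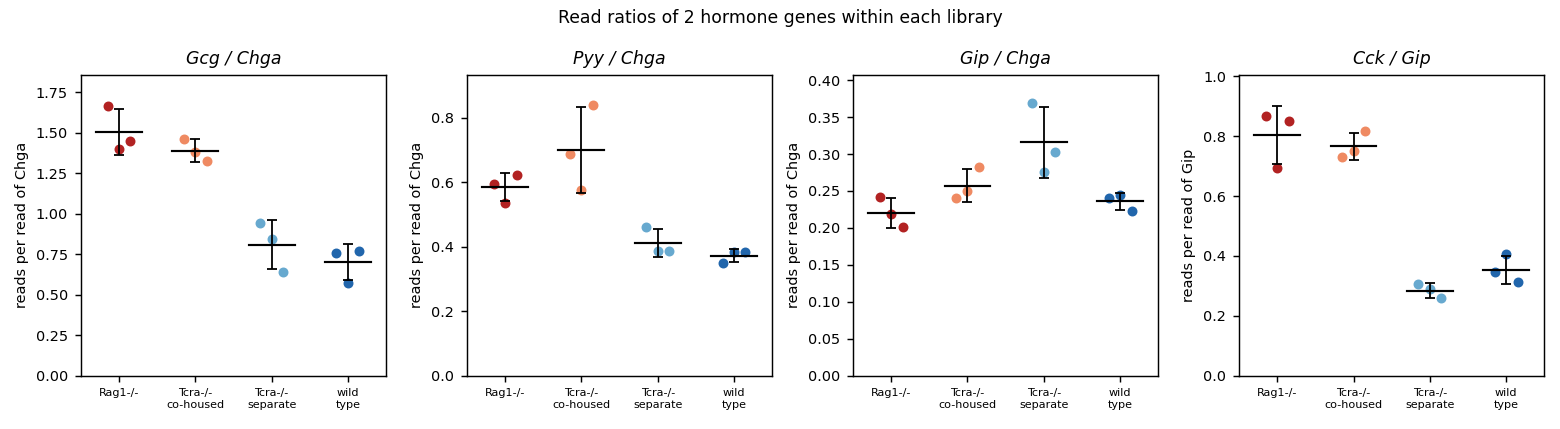
Ratios of reads of 2 hormone genes within each library on the vertical axis (from 0), with 1 point per mouse, a line at the mean and bars of 1 SD (n = 3). Gcg per Chga, Pyy per Chga and Cck per Gip are higher in all Rag1-/- and co-housed Tcra-/- mice than in all other mice, while Gip per Chga overlaps between Rag1-/- and wild type mice and is highest on average in separately housed Tcra-/- mice.

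Genes that followed Chga over the 12 mice were ranked by Pearson's r of log2 CPM among 13328 genes, as a description with no test, since the groups and depth are shared. The 5 most alike outside the 10 genes were Pik3r5, a PI3-kinase regulatory subunit (r = 0.974), Acsl5, a long-chain acyl-CoA synthetase of enterocytes (0.970), 4930420K17Rik (0.965), Scai (0.963) and Sema7a, a semaphorin (0.962). Their r of deviations from the group means was 0.876, 0.900, 0.928, 0.784 and 0.852. Among the 10 genes r with Chga was 0.919 for Chgb, 0.908 for Tph1, 0.906 for Gip, 0.863 for Nts, 0.764 for Sst, 0.750 for Neurod1, 0.30 for Pyy, -0.22 for Gcg and -0.39 for Cck. Within groups, however, r was positive for all 9, at 0.62 for Gcg, 0.58 for Pyy and 0.43 for Cck.

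Genes of other gut hormones, and of hormone making, sensing, reception and breakdown, were then counted in 7 lists. These lists are not specific to enteroendocrine cells. Guca2a, Guca2b, Mlxipl, Slc5a1, Ddc, Maoa and Maob, which enterocytes express too, were called lower in both comparisons stated in the design text. The totals that follow therefore do not count enteroendocrine genes alone. In mice labelled Rag1-/- 14 of 89 tested genes were called lower and 4 higher (20.2% called). Of all genes tested, 11.5% were called lower and 9.42% higher there. In co-housed against separately housed mice 23 of 89 were called lower and 4 higher (30.3% called), beside 17.7% and 21.1% of all genes. The same shares of all genes apply to each list below. Of 12 other gut hormones and peptides tested, 3 fell and 1 rose in mice labelled Rag1-/-, and 3 fell and 2 rose in co-housed against separately housed mice, with a median log2 fold change of -0.30 and -0.14. Tac1, which encodes the substance P precursor of enterochromaffin cells and enteric neurons, averaged 63.6 ± 5.08 CPM in mice labelled Rag1-/- and 11.9 ± 1.60 CPM in wild type mice (log2 fold change 2.42, SE 0.14, adjusted p = 1.38e-08). It also rose in co-housed mice, with 39.9 ± 8.19 CPM against 8.82 ± 0.658 CPM in separately housed mice (2.18, SE 0.14, adjusted p = 1.84e-08). Tac1 and Tph1 thus had opposite signs in both comparisons. Guca2b and Guca2a, the guanylin peptides, which enterocytes and goblet cells also make, fell in both (-0.81 and -0.32 in mice labelled Rag1-/-, -1.54 and -0.68 in co-housed mice), with the call of Guca2a in mice labelled Rag1-/- lost on leaving out 1 of 4 of the 6 mice (adjusted p 0.0154 to 0.0197). Sct, the secretin gene, fell by 0.47 in mice labelled Rag1-/- (SE 0.11, adjusted p = 0.00359; 0.0101 with the 6 libraries alone, and up to 0.0246 without 1 mouse) and by 0.60 in co-housed against separately housed mice (SE 0.11, adjusted p = 0.000271). Ghrl, the ghrelin gene, rose in co-housed mice, at 3.55 ± 0.560 CPM in co-housed against 1.74 ± 0.466 CPM in separately housed mice (1.02, adjusted p = 0.000636), and had -0.28 in mice labelled Rag1-/- (adjusted p = 0.306).

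Among 18 genes of hormone processing and the secretory granule, 1 fell in mice labelled Rag1-/- and 5 in co-housed against separately housed mice, and none rose (medians -0.15 and -0.41). Pcsk1, the prohormone convertase that cuts proglucagon to GLP-1, averaged 10.6 ± 0.965 CPM in mice labelled Rag1-/- and 15.4 ± 0.851 CPM in wild type mice (log2 fold change -0.54, SE 0.12, adjusted p = 0.00175; 0.0127 without RAG1x3163). Pam, which amidates peptide hormones, averaged 47.0 ± 5.04 CPM in co-housed and 74.5 ± 2.30 CPM in separately housed mice (-0.66, SE 0.08, adjusted p = 3.13e-06). Cacna1a, a presynaptic calcium channel subunit, fell with it (-0.63, adjusted p = 0.000806), as did Scg2, secretogranin 2 (-0.40, adjusted p = 0.00421), whose call was lost without TCRaCox3155, TCRaCox3157, TCRaSepxT2 or TCRaSepxT4 (adjusted p 0.0108 to 0.0201). Rab3c and Ptprn2, both of the granule membrane, were the other 2 (-0.67 and -0.39).

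Of 17 tested transcription factors of the lineage, 3 fell and 1 rose in mice labelled Rag1-/-, and 1 fell in co-housed against separately housed mice (medians -0.49 and -0.37). The fate factors Neurog3, Insm1, Nkx2-2, Isl1, Fev, Pax6 and Rfx6 passed in neither. Mlxipl, the carbohydrate response factor ChREBP, which enterocytes also express, fell in both (-0.78, SE 0.12, adjusted p = 0.000144, and -1.40, SE 0.12, adjusted p = 3.18e-07). Lmx1a, a factor of enterochromaffin cells, averaged 0.273 ± 0.0967 CPM in mice labelled Rag1-/- and 0.735 ± 0.0738 CPM in wild type mice (-1.41, SE 0.33, adjusted p = 0.00407), and Foxa2 fell there too (-0.81, adjusted p = 0.00474). Both calls, and that of Foxa1, which rose (0.39, adjusted p = 0.00399), were lost without several single mice, Foxa1 also with library size as the scaling (adjusted p = 0.0739). Of 10 nutrient and microbial sensors, 1 fell in each comparison and none rose: the glucose transporter Slc5a1, which is mainly an enterocyte gene (-0.54 and -0.46), and both calls were lost without single mice of either group (adjusted p up to 0.0401).

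Serotonin handling beyond Tph1 was measured with 11 genes, of which 4 fell and none rose in mice labelled Rag1-/-, and 6 fell and 2 rose in co-housed against separately housed mice (medians -0.24 and -0.63). Ddc, the decarboxylase of the second step, averaged 37.1 ± 4.17 CPM in mice labelled Rag1-/- and 89.7 ± 9.29 CPM in wild type mice (log2 fold change -1.27, SE 0.11, adjusted p = 4.32e-07). In co-housed mice Ddc averaged 35.4 ± 5.34 CPM, against 131.5 ± 3.51 CPM in separately housed mice (-1.89, SE 0.11, adjusted p = 4.47e-09). The monoamine oxidases Maob and Maoa, which break serotonin down, fell as well (-1.23 and -0.84 in mice labelled Rag1-/-, -2.36 and -1.23 in co-housed mice). Enterocytes express Ddc and both oxidases too. Slc6a4, the serotonin transporter, fell in co-housed against separately housed mice (-0.83, SE 0.10, adjusted p = 5.41e-06) and did not pass in mice labelled Rag1-/- (-0.25, adjusted p = 0.0691; 0.00386 with library size as the scaling). Slc18a1, the vesicular monoamine transporter of enterochromaffin cells, fell in co-housed mice by 0.51 (adjusted p = 0.000870), while the receptors Htr4 and Htr7 rose by 1.03 and 1.55. The receptor Htr1d went the other way and was called lower in both comparisons. Htr3a and Htr3b were called in neither.

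Receptors of the hormones and the peptidases that degrade them were counted last. Of 12 tested hormone receptors, 1 fell and 1 rose in mice labelled Rag1-/-, and 4 fell in co-housed against separately housed mice (medians -0.41 and -0.25). Glp1r, the GLP-1 receptor, fell on 7 reads in mice labelled Rag1-/- (-3.07, SE 0.83, adjusted p = 0.00969), and Sort1, a neurotensin-binding sorting receptor, rose (0.30, SE 0.06, adjusted p = 0.00176; 0.109 with library size as the scaling). Sstr1, a somatostatin receptor, averaged 1.45 ± 0.341 CPM in co-housed and 3.55 ± 0.172 CPM in separately housed mice (-1.29, SE 0.21, adjusted p = 8.7e-05), and Sstr3, Sstr5 and Gcgr, each at a mean under 2 CPM, also fell, Sstr3 with a call lost without 1 of 3 mice (adjusted p up to 0.0214). Of 9 peptidases, Mme, neprilysin, fell in both comparisons (-1.76, SE 0.35, adjusted p = 0.00473, and -2.12, SE 0.35, adjusted p = 0.000952). Its first call was lost on leaving out any 1 of the 6 mice (adjusted p 0.0108 to 0.0215), and its second with the 6 libraries alone (0.0201). Ide, the insulin-degrading enzyme, rose in mice labelled Rag1-/- (0.37, adjusted p = 0.00665; 0.138 with library size as the scaling), and Mep1a and Ace fell in co-housed against separately housed mice (-1.05 and -0.73). The call of Ide was also lost on leaving out any 1 of the 6 mice other than RAG1x3164 (adjusted p 0.0108 to 0.0375). Dpp4, which inactivates GLP-1 and GIP, passed in neither.

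**Figure D4:**
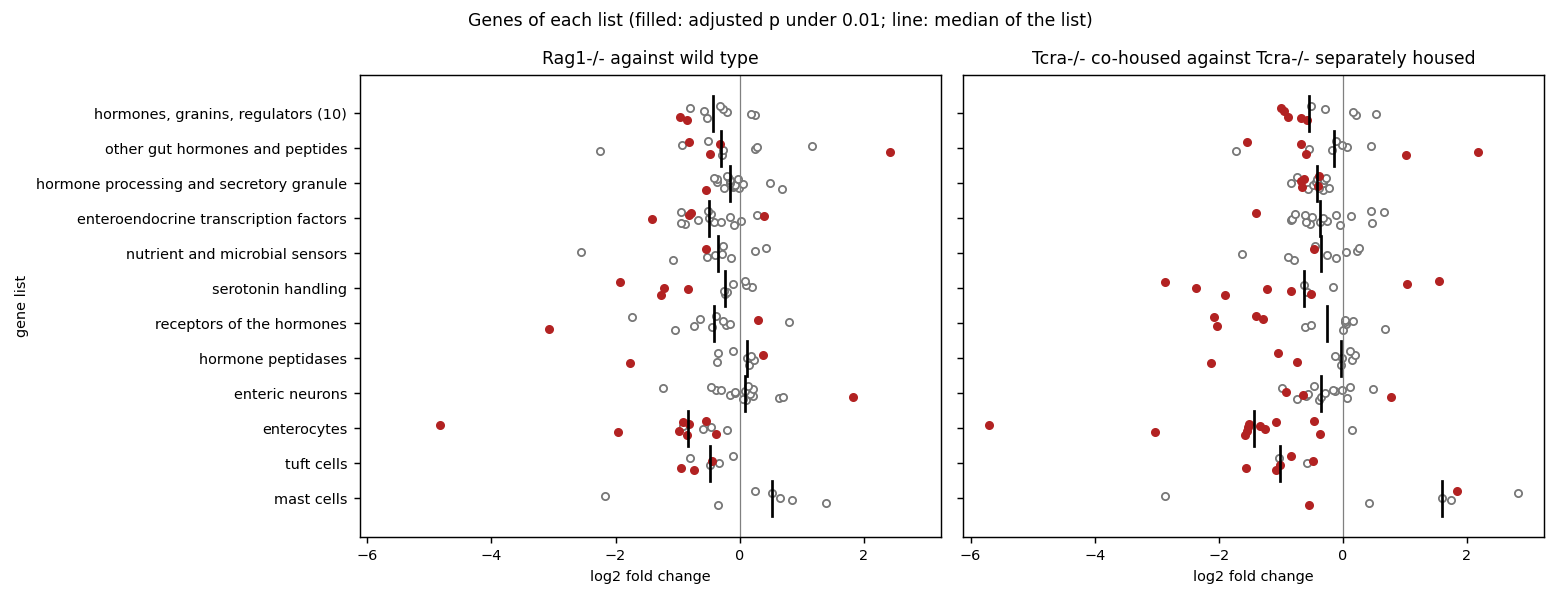
Each point is the log2 fold change (horizontal axis) of 1 gene of a list, filled where the adjusted p was under 0.01, with a line at the median of the list, in 2 comparisons. The medians of the enterocyte and tuft cell lists lie below 0 in both panels, as do those of most other lists, and Tac1 is the highest point of the other gut hormones at 2.42 and 2.18.

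Markers of enterocytes and tuft cells also fell in these comparisons. Few genes of the glia, smooth muscle, goblet, Paneth and crypt cell lists, given further below, were called lower. Of all genes tested, 11.5% were called lower and 9.42% higher in mice labelled Rag1-/-. The shares were 17.7% and 21.1% in co-housed against separately housed mice. Of 12 enterocyte genes 8 fell in mice labelled Rag1-/- and 11 in co-housed against separately housed mice, and none rose. Their summed level was 15298 to 18455 CPM in mice labelled Rag1-/- and 15200 to 19910 CPM in co-housed Tcra-/- mice, against 31583 to 35933 CPM in separately housed Tcra-/- mice and 24151 to 28863 CPM in wild type mice, the same split of mice as for Chga. Of 7 tested tuft cell genes 3 and 5 fell, and their sums were 40.2 to 44.1 CPM in mice labelled Rag1-/-, 39.6 to 47.3 in co-housed, 71.0 to 92.4 in separately housed and 56.8 to 66.3 CPM in wild type mice. Enteric neurons also express Chga, Chgb, Sst, Cck and Tac1. Of 17 neuron genes none fell in mice labelled Rag1-/- and 1, Ret, rose, while Snap25 and Uchl1 fell and Ret rose in co-housed against separately housed mice. Summed neuron levels were 85.8 to 111 CPM in mice labelled Rag1-/-, 89.5 to 110 in co-housed, 86.8 to 93.9 in separately housed and 67.9 to 75.8 CPM in wild type mice. The part of these cells in the results above was not tested.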

How the data were processed

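The submitters' processing notes name bcl2fastq, the aligners TopHat2 2.0.11 and Bowtie2 2.2.2.0, the build mm9, featureCounts in Subread 1.4.5-p1 and DESeq2 1.12.3. As deposited, the table holds unnormalized whole-number counts per gene, per the file headers, with exon coordinates and a summed exon length in bases that served here for levels per kb. The kit marks strand, per the labels' protocols. The annotation and the handling of strand and multi-mapped reads in counting were not given in the sources used. None of the 10 genes shares exon bases with another gene of the table.

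Counts were filtered with filterByExpr of edgeR 4.0.16 in R 4.3.3 (15866 of 23284 genes kept), scaled by TMM (factors 0.926 to 1.07) and fitted with edgeR's robust quasi-likelihood model, 1 term per group over all 12 libraries (8 residual degrees of freedom). Tests were two-sided with Benjamini-Hochberg adjustment over all genes kept, and a gene counted as called below 0.01, since the design text sets a 1% rate. Each adjusted p in the text comes from this test or the named alternative. An SE is the log2 fold change over the square root of F, and a 95% interval uses a t quantile on 8 degrees of freedom. The test adds prior degrees of freedom, so an interval can be wider than its test implies. For Gip in separately housed Tcra-/- against wild type mice the interval was -0.0074 to 0.62, beside an unadjusted edgeR p of 0.0389. Exact 3 against 3 tests cannot go below 0.1. The steps were tested on simulated data. Alternatives were library size as the scaling, no filter, CPM over 1 in 3 libraries, no robust step, the 6 libraries compared alone, DESeq2 1.42.0, and leaving out each mouse.

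The 10 genes and the lists were chosen with earlier results of these data known. All 10 genes are named. From each of the 7 lists up to 4 genes called in either stated comparison are named by the smallest adjusted p. The few others named were chosen after their values were seen. Likeness used log2 CPM (prior count 2) and genes with a mean CPM of 1 or more. Enteric glia, smooth muscle, goblet, Paneth, crypt and pancreas lists were also counted. RefSeq promoters (GRCm38.p6) were matched by symbol for 10 of 10 genes; no coordinate was converted between builds. A few listed genes are not reported here.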

Additional observations from a re-analysis of the deposited data

How the results depend on the processing

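No paired analysis was possible because the labels give groups no shared replicate numbers. The number of the 10 genes called in mice labelled Rag1-/- against wild type was 2, but 4 with library size as the scaling, 5 with the 6 libraries alone and 4 with DESeq2. With the 6 libraries alone it was 0 in place of 3 in co-housed Tcra-/- against wild type mice, and 1 (Nts) in place of 0 in separately housed Tcra-/- against wild type mice. Sort1 in co-housed against separately housed mice was 0.04 and became -0.072 with library size as the scaling. Leaving out 1 mouse gave 3 to 6 genes called in place of 5 in co-housed against separately housed mice, 0 to 4 in place of 3 in co-housed against wild type mice, and 1275 to 1734 of all genes in place of 2182 in separately housed against wild type mice. None of the uncalled log2 fold changes that turned sign on leaving out 1 mouse was called in either direction. In mice labelled Rag1-/- these ran from -0.0073 to 0.42 for Cck, from -0.072 to 0.039 for Cacna1a and from -0.21 to 0.013 for Scg2. In co-housed against separately housed mice Foxa2 ran from -0.24 to 0.087. In co-housed against wild type mice they ran from -0.32 to 0.031 for Sst and from -0.28 to 0.27 for Neurod1. In separately housed against wild type mice they ran from -0.22 to 0.20 for Cck, from -0.038 to 0.15 for Pyy, from -0.00281 to 0.32 for Sst and from -0.075 to 0.10 for Tph1. The cause of these shifts was not tested. With 3 mice a group, an interval that holds 0 does not show equal levels, and low read counts widen the intervals of scarce genes such as Neurod1, Lmx1a and Glp1r.

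Lists counted beside the 10 genes gave in mice labelled Rag1-/- 0 of 5 enteric glia genes called, 0 of 8 of smooth muscle and 0 of 7 of crypt cells, 1 of 7 of goblet cells (Zg16, lower) and 1 of 7 of Paneth cells (Pla2g2a, higher). In co-housed against separately housed mice 1 glia gene (Erbb3) and 1 smooth muscle gene (Tagln) fell, 3 crypt genes (Mki67, Top2a and Pcna) and Pla2g2a rose, and 2 goblet cell genes rose (Agr2 and Clca1) and 2 fell (Tff3 and Zg16). The 1 pancreas gene that passed the filter was not called in either. Of all genes tested, 11.5% were called lower and 9.42% higher in mice labelled Rag1-/-. The shares were 17.7% and 21.1% in co-housed against separately housed mice.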

Other observations

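In separately housed Tcra-/- against wild type mice, the 7 lists held 10 genes called higher and 2 called lower of 89 tested. Of all genes tested, 6.06% were called higher and 7.70% lower there. These lists, counted beside the 10 hormone genes, also hold genes that enterocytes express, such as Ddc, Maob, Guca2a and Guca2b, which were among those called higher. By list, 4 of 11 serotonin genes, 3 of 18 genes of processing and the granule, 2 of 12 other gut hormones and 1 of 17 transcription factors rose. Ghrl averaged 1.74 ± 0.466 CPM in separately housed Tcra-/- mice and 4.08 ± 0.646 CPM in wild type mice (SD, n = 3 each; log2 fold change -1.23, edgeR adjusted p = 0.000430). Pcsk2, the prohormone convertase that yields glucagon, averaged 1.84 ± 0.461 CPM in separately housed and 0.795 ± 0.0961 CPM in wild type mice (1.21, adjusted p = 0.00267). Slc18a2, a vesicular monoamine transporter, averaged 2.17 ± 0.314 CPM in separately housed and 1.10 ± 0.162 CPM in wild type mice (0.98, adjusted p = 0.00627). Etv1, a factor of the lineage and of the interstitial cells of Cajal, averaged 7.90 ± 1.52 CPM in separately housed and 3.76 ± 1.43 CPM in wild type mice (1.07, adjusted p = 0.00311). Erbb3, a gene of the glia list, also rose there. These genes were chosen after their values were seen. Hormones of other gut regions were scarce in the 12 libraries together, with 0 reads of Gast, 56 of Insl5 and 39 of Ppy.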
